A study of Rattus norvegicus with 12 samples.

Results

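Antigen presentation and immunoproteasome genes were followed in cultured rat kidney cells kept at high osmolality or moved to low osmolality. The 10 genes were Psmb8, Psmb9, Psmb10, Psme1, Psme2, Tap1, Tap2, Tapbp, B2m and Cd74, taken from 14506 genes that had a probe set with a single symbol. Membership came from gene identity and not from measured values, and each gene was read by its probe set with the highest mean over the 12 arrays. All 10 genes were measured. The question was whether they follow osmolality and time in the way antiviral interferon-stimulated genes do.

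Nucleated cells cut cytosolic proteins with the proteasome, carry the peptides into the endoplasmic reticulum through the TAP transporter, and load them onto MHC class I molecules for display to CD8 T cells. Interferons, above all interferon gamma, raise many of these genes together, and exchange the standard catalytic subunits of the proteasome for the immunoproteasome subunits. The same interferon system turns on antiviral genes such as Mx1 and the Ifit and Oas families, whose promoters often hold the interferon-stimulated response element (ISRE). Kidney tubule cells display MHC class I, and under inflammation they can also make MHC class II.

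The samples were primary inner medullary collecting duct (IMCD) cells from kidneys of male SD rats aged 7 weeks. Every culture was first grown for 4 days at 640 mOsm/kg. Cells were then moved to 300 mOsm/kg for 48 h, kept at 640 mOsm/kg for 48 h, moved to 300 mOsm/kg for 24 h, or kept at 640 mOsm/kg for 24 h, with 3 arrays in each of the 4 groups. Nothing in the labels tells if the 3 arrays of a group had separate donor animals or dishes. The p-values therefore reflect the spread between these arrays, and that spread may be technical. A primary culture holds more than 1 cell type, and in such bulk RNA fewer cells of a type and less RNA per cell cannot be told apart.

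The promoters are shown first because most of these genes hold the letters of the interferon response element there, as most of the antiviral genes do. The core of the element was searched on both strands as GAAA and GAAA with any pair of bases between them. The windows reached from 250 bases before to 50 bases after the start used for each gene's promoter sequence (RefSeq, assembly GRCr8). For Psmb8, Psmb9, Psme1, Psme2, Tapbp, B2m and Cd74 that start lay inside the gene as annotated. The matches printed below for Psmb8, Psme2 and Tapbp also lay inside the annotated gene. A match was present in 7 of the 10 windows (70.0%), in 26 of 38 windows of the antiviral genes (68.4%) and in 1312 of 33469 windows of all genes (3.92%). The matches are printed 5′ to 3′ on the strand of the gene with up to 20 bases on each side. Capitals mark the match, which reads TTTC and TTTC around the pair of bases where the element lies on the other strand. Psmb10 held 2 separate matches, and Tapbp and Oas1a each held 2 overlapping ones. Ifit3, Oas1a and Cxcl10 are shown as antiviral genes with which the 10 genes are compared.
Psmb8 (chr20:4657006-4657055, minus strand): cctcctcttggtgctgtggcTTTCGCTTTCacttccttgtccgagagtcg
Psmb10 (chr19:50743336-50743385, minus strand): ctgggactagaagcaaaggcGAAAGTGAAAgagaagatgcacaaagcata
Psmb10 (chr19:50743280-50743329, minus strand): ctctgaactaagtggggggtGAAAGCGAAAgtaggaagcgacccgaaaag
Psme2 (chr15:33052775-33052824, minus strand): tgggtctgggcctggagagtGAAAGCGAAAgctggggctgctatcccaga
Tap1 (chr20:4668635-4668684, minus strand): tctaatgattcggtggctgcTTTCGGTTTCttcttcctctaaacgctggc
Tap2 (chr20:4652308-4652357, minus strand): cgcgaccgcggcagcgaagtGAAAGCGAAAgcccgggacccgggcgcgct
Tapbp (chr20:4967868-4967923, minus strand): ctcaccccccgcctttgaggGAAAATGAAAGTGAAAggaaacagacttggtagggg
B2m (chr3:129549160-129549209, plus strand): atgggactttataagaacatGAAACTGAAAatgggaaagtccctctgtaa
Ifit3 (chr1:241527262-241527311, plus strand): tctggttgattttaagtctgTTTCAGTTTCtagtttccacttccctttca
Oas1a (chr12:41330405-41330460, plus strand): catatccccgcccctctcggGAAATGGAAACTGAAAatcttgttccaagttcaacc
Cxcl10 (chr14:15988816-15988852, plus strand): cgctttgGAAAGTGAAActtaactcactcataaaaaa
Psmb9, Psme1 and Cd74 had no match in this window, and among the antiviral genes neither did Mx1 or Oasl. A match is a description of letters and not evidence of binding. Other elements were rarer among the 10 windows. The gamma-activated site, TTCNNNGAA, occurred in Psmb8 alone, against 9 of 38 antiviral windows (23.7%) and 8.87% of all windows. An NF-kappaB site, GGGNNTTCC, occurred in Cd74 alone, against 1 of 38 antiviral windows (2.63%) and 5.92% of all windows. The core of the tonicity element bound by Nfat5, TGGAAA, occurred in Psmb9, Tapbp and Cd74. It occurred in 19 of 38 antiviral windows and in 22.7% of all windows, so it was more frequent in the antiviral list. In Oas1a these letters lie inside the printed match of the interferon element. How often that held over the antiviral list was not counted. In the annotation Tap2, Psmb8, Tap1 and Psmb9 stand next to each other in the MHC region with no other annotated gene between them, and Tap1 and Psmb9 are read in opposite directions from a shared intergenic stretch, which holds the match printed for Tap1.

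The arrays did not share a common level as deposited. The median log2 value over named genes was between 6.81 and 6.97 on the 6 arrays at 48 h and between 7.43 and 7.58 on 4 arrays at 24 h. The other two arrays at 24 h, replicate 1 at 300 mOsm/kg and replicate 3 at 640 mOsm/kg, stood apart at 6.89 and 6.90. Each array was therefore shifted to a common median, and all levels and differences below are on that centred log2 scale unless the deposited scale is named. A difference of 1 on this scale is 2-fold. Comparisons were made with limma across all 14506 genes, and a gene was called when its Benjamini-Hochberg adjusted p was under 0.05. None of the 10 genes was called with or without the 2 arrays that stood apart.

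None of the 10 genes passed the test between 300 and 640 mOsm/kg at either time, whereas 1.85% of all genes did at 48 h and 0.655% at 24 h. At 48 h 7 of the 10 were higher at 300 mOsm/kg and 3 were lower, with a median difference of 0.11 against 0.02 over all genes. At 24 h 9 were higher and 1 was lower, with a median of 0.18 against -0.04 over all genes. The change of the osmolality difference between the times was called for 0.0276% of all genes and for none of the 10. At an unadjusted limma p under 0.05 the 10 gave 0 genes between osmolalities at 48 h (8.18% of all genes), 1 at 24 h (Cd74; 5.45% of all genes) and 0 for the change of the difference (0.903% of all genes). Not one of the 10 separated the 3 arrays at 300 mOsm/kg from the 3 at 640 mOsm/kg at 48 h, where 14.8% of all genes did, and 1 separated them at 24 h, where 8.56% did. Sets of arrays resembled each other across the osmolalities, as given below, and neither the fit nor these overlaps use those sets. The overlaps and SDs given for each gene below likewise include the variation that the sets shared. Whether a gene differed within the sets was not tested.

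**Figure D1:**
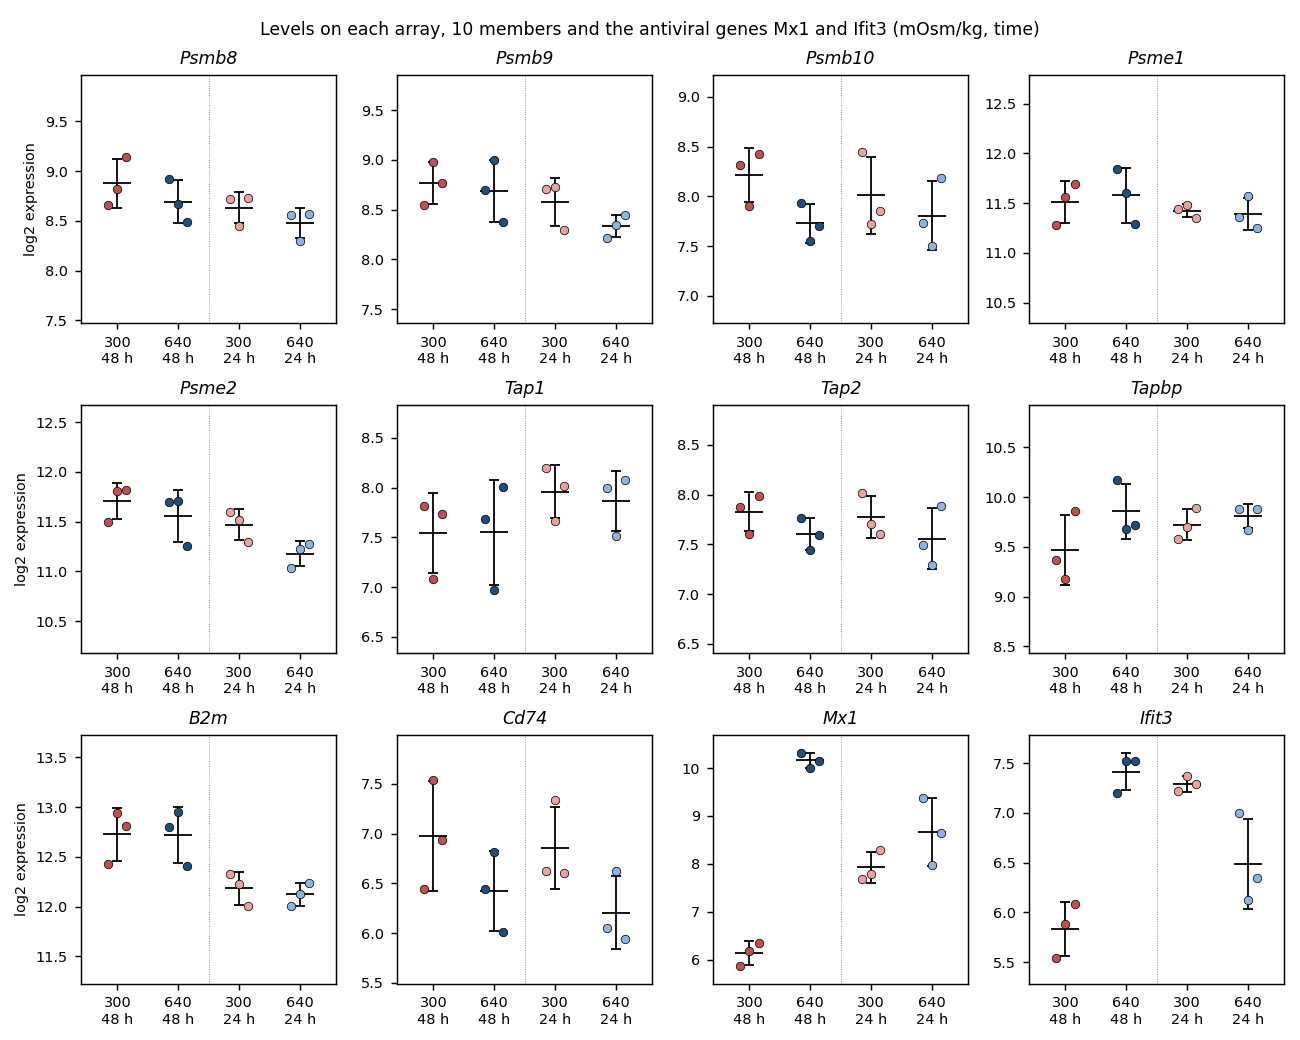
Centred log2 level of the 10 genes and of the antiviral genes Mx1 and Ifit3 on each array, by group. Points are arrays and bars are means with SD (n = 3). All panels span the same height on the log2 axis except Mx1. The points of the 10 genes overlap between 300 and 640 mOsm/kg at 48 h, while those of Mx1 and Ifit3 do not.

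The catalytic subunits of the immunoproteasome are Psmb8, Psmb9 and Psmb10, which take the places of Psmb5, Psmb6 and Psmb7 in the standard proteasome. Psmb8 was at 8.66, 8.83 and 9.14 after 48 h at 300 mOsm/kg, against 8.92, 8.67 and 8.48 after 48 h at 640 mOsm/kg. After 24 h it was at 8.72, 8.45 and 8.73 at 300 mOsm/kg, against 8.56, 8.30 and 8.57 at 640 mOsm/kg. The groups overlapped at both times, and the differences were 0.18 ± 0.18 at 48 h and 0.16 ± 0.18 at 24 h (SE, limma). Its group means ran in the order 8.88, 8.69, 8.63 and 8.48 (48 h at 300, 48 h at 640, 24 h at 300 and 24 h at 640), with SDs of 0.153 to 0.243. No neighbours in this order were apart by more than the larger of their SDs. These SDs include the variation that sets of arrays shared across the osmolalities.

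Psmb9, the subunit beside Tap1 in the genome, was at 8.55, 8.98 and 8.77 after 48 h at 300 mOsm/kg and at 8.70, 9.00 and 8.37 after 48 h at 640 mOsm/kg. After 24 h it was at 8.71, 8.72 and 8.30 at 300 mOsm/kg and at 8.22, 8.34 and 8.45 at 640 mOsm/kg. The arrays overlapped at both times. The differences were 0.08 ± 0.19 at 48 h and 0.24 ± 0.19 at 24 h (SE). Its means ran in the same order as those of Psmb8, at 8.76, 8.69, 8.58 and 8.34. The largest gap between neighbours, 0.24 between 24 h at 300 and 24 h at 640 mOsm/kg, was no more than the SD of 0.244 at 300 mOsm/kg.

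Psmb10, encoded outside the MHC, showed the widest osmolality difference of the 3 subunits at 48 h. It was at 8.32, 7.90 and 8.42 at 300 mOsm/kg, against 7.94, 7.55 and 7.70 at 640 mOsm/kg, where a single array at 640 mOsm/kg lay above the lowest array at 300 mOsm/kg. The difference was 0.49 ± 0.23 (SE) with a limma adjusted p of 0.623 (raw p 0.0516). At 24 h the arrays stood at 8.45, 7.72 and 7.86 at 300 mOsm/kg, against 7.74, 7.50 and 8.19 at 640 mOsm/kg, a difference of 0.20 ± 0.23. On the deposited scale the arrays of the groups did not overlap at either time, with differences of 0.49 and 0.22 that were not called. Its means ran 8.22 (48 h at 300), 8.01 (24 h at 300), 7.81 (24 h at 640) and 7.73 (48 h at 640), each within the spread of the next.

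The standard counterparts did not pass either. Psmb5 differed by 0.11, Psmb6 by 0.28 and Psmb7 by 0.15 at 48 h, and by -0.07, -0.09 and -0.06 at 24 h. Of the 13 measured genes of the constitutive 20S core, 12 were higher at 300 mOsm/kg at 48 h with a median of 0.15, and 7 were higher at 24 h with a median of 0.01. None of the 13 was called in any of the 5 comparisons.

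Psme1 and Psme2 encode the alpha and beta subunits of the PA28 activator, a ring that caps the proteasome and is raised by interferon gamma. Psme1 was at 11.28, 11.56 and 11.69 after 48 h at 300 mOsm/kg and at 11.84, 11.60 and 11.29 after 48 h at 640 mOsm/kg. The 24 h arrays were at 11.44, 11.48 and 11.35 at 300 mOsm/kg and at 11.36, 11.57 and 11.25 at 640 mOsm/kg. Its group means lay within 0.19 of each other, the narrowest range among the 10 genes, and the osmolality differences were -0.07 ± 0.18 and 0.03 ± 0.18 (SE) at 48 h and 24 h.

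Psme2 was at 11.50, 11.81 and 11.82 after 48 h at 300 mOsm/kg and at 11.70, 11.71 and 11.25 after 48 h at 640 mOsm/kg. After 24 h it was at 11.59, 11.52 and 11.29 at 300 mOsm/kg, against 11.03, 11.23 and 11.27 at 640 mOsm/kg. Psme2 was the only one of the 10 whose arrays at 24 h did not overlap, although the gap between the nearest arrays was small and the arrays did overlap on the deposited scale. Its differences were 0.15 ± 0.18 at 48 h and 0.29 ± 0.18 at 24 h (SE, limma adjusted p 0.999 and 1.000). Both genes have a second probe set. For Psme2 it differed by 0.22 at both times, and for Psme1 by -0.08 at 48 h and 0.13 at 24 h. Whether the second probe sets read the same gene or a near-identical copy was not tested.

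Tap1 and Tap2 form the peptide transporter, and Tapbp (tapasin) bridges it to class I molecules waiting for peptide. Tap1 was at 7.82, 7.09 and 7.73 after 48 h at 300 mOsm/kg and at 7.68, 6.97 and 8.003 after 48 h at 640 mOsm/kg, with replicate 2 lowest in both groups. The 24 h arrays stood at 8.19, 7.67 and 8.01 at 300 mOsm/kg and at 7.997, 7.52 and 8.08 at 640 mOsm/kg. The osmolality differences were -0.01 ± 0.27 at 48 h and 0.09 ± 0.27 at 24 h (SE), within the spread of each group. Tap1 ran against most of the others in time. Its means were 7.55 at 48 h at both osmolalities and 7.96 (300 mOsm/kg) and 7.86 (640 mOsm/kg) at 24 h.

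Tap2 was at 7.88, 7.61 and 7.99 after 48 h at 300 mOsm/kg and at 7.76, 7.44 and 7.60 after 48 h at 640 mOsm/kg. At 24 h it stood at 8.01, 7.71 and 7.61 at 300 mOsm/kg and at 7.49, 7.29 and 7.89 at 640 mOsm/kg. The arrays overlapped at both times and the difference was 0.22 ± 0.19 (SE) at each. Its means ran 7.83 and 7.78 at 300 mOsm/kg (48 h and 24 h) and 7.60 and 7.56 at 640 mOsm/kg, with SDs of 0.160 to 0.304.

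Tapbp had the lowest osmolality difference of the 10 at both times. After 48 h it was at 9.37, 9.18 and 9.87 at 300 mOsm/kg, against 10.18, 9.68 and 9.72 at 640 mOsm/kg, so that 1 array at 300 mOsm/kg lay among those at 640 mOsm/kg. The difference was -0.38 ± 0.20 (SE) with a limma adjusted p of 0.738 (raw p 0.0731). Its 24 h arrays were at 9.58, 9.70 and 9.89 at 300 mOsm/kg and at 9.88, 9.67 and 9.88 at 640 mOsm/kg, a difference of -0.09 ± 0.20. The group with the lowest mean was 48 h at 300 mOsm/kg, at 9.47 ± 0.352 (SD, n = 3), below 9.72, 9.81 and 9.86 in the others.

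B2m is the invariant light chain of class I molecules. It was at 12.43, 12.94 and 12.81 after 48 h at 300 mOsm/kg and at 12.80, 12.95 and 12.41 after 48 h at 640 mOsm/kg. After 24 h it was at 12.33, 12.23 and 12.003 at 300 mOsm/kg and at 12.01, 12.13 and 12.23 at 640 mOsm/kg. Osmolality made differences of 0.01 ± 0.19 at 48 h and 0.06 ± 0.19 at 24 h (SE). The 95% interval of the 48 h difference ran from -0.39 to 0.41. The heavy chains of class I and class I-like molecules were covered by 23 measured genes, with no called gene and medians of 0.02 at 48 h and 0.01 at 24 h. The classical class I genes of the RT1-A group share probe sets that carry several symbols and were not analysed here.

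Cd74, the invariant chain, belongs to the class II pathway, where it escorts class II molecules to the compartment in which peptides are loaded. It had the largest osmolality difference of the 10 at both times. At 48 h it was at 6.44, 7.54 and 6.94 at 300 mOsm/kg, against 6.45, 6.81 and 6.01 at 640 mOsm/kg. At 24 h it was at 6.63, 7.34 and 6.61 at 300 mOsm/kg, against 6.05, 6.62 and 5.94 at 640 mOsm/kg. Replicate 2 was highest in all 4 groups, and the arrays overlapped at both times. The difference was 0.55 ± 0.30 (SE) at 48 h with a limma adjusted p of 0.775 (raw p 0.0833), and 0.65 ± 0.30 at 24 h with an adjusted p of 0.884 (raw p 0.0447). With the arrays weighted by their quality, the limma fit called Cd74 at 24 h, at 0.60 with an adjusted p of 0.0441, among 1595 genes (11% of all) called by that fit.

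Genes of the class II pathway were looked at beside Cd74 after its values were seen. Of 9 measured class II chains, 6 were higher at 300 mOsm/kg and 3 lower at 48 h (median 0.02), and 7 were higher and 2 lower at 24 h (median 0.02), with none called. RT1-Da, a class II alpha chain, averaged 5.795 ± 0.269 after 48 h at 300 mOsm/kg, against 5.32 ± 0.215 at 640 mOsm/kg (SD, n = 3 each). At 24 h it averaged 5.52 ± 0.395 at 300 mOsm/kg, against 4.88 ± 0.119 at 640 mOsm/kg. It was named because its arrays did not overlap between the osmolalities at either time, which held for no other chain of the 9. On the deposited scale its arrays overlapped at 48 h and not at 24 h. RT1-Ba, RT1-Bb and RT1-Ha were lower at 300 mOsm/kg at 48 h, at -0.15, -0.09 and -0.13. RT1-Db1, a class II beta chain, averaged 5.40 and 5.38 at 48 h (300 and 640 mOsm/kg) and 4.75 and 4.64 at 24 h. Ciita, the transactivator of class II genes, differed by -0.21 at 48 h and -0.02 at 24 h.

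The precision of the arrays sets what these results can show. Over the 10 genes, the 95% intervals of the osmolality difference reached from -0.81 (Tapbp) to 1.18 (Cd74) at 48 h and from -0.51 (Tapbp) to 1.28 (Cd74) at 24 h. In simulated data with the means and spread of these arrays, the 48 h comparison recovered 6% of genes changed by 0.5, 52% of those changed by 1 and all of those changed by 2. The simulated noise was independent from array to array, without the variation that sets of the measured arrays shared. The fit compared group means and did not use the sets of arrays at the 2 osmolalities that resembled each other, which the labels do not give. By this fit, a difference of the size measured for Psmb10 or Cd74 was seldom detectable in simulated independent arrays, 3 a group. A fit that uses those sets was not run, so what it would detect is not known.

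**Figure D2:**
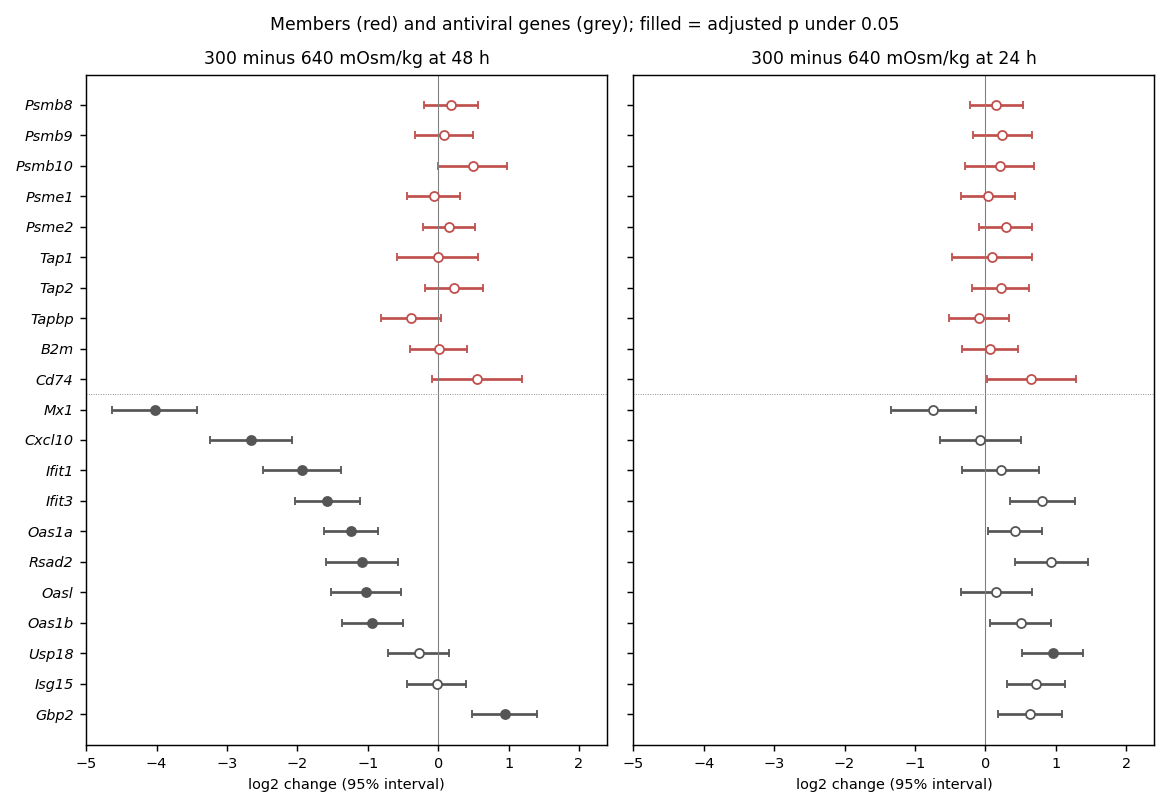
Difference between 300 and 640 mOsm/kg (300 minus 640, centred log2) for the 10 genes and for antiviral genes at 48 h and 24 h, with 95% intervals from limma. The antiviral genes shown are Mx1, Ifit1, Ifit3, Isg15, Usp18 and those called in any of the comparisons. Values of the 10 genes are in red and filled points were called at an adjusted p under 0.05. The intervals of the 10 genes include 0 except that of Cd74 at 24 h, which starts just above it, while Mx1, Cxcl10, Ifit1, Ifit3 and Oas1a lie below -0.81, the lowest bound of any of the 10, at 48 h.

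Several antiviral genes had called differences at 48 h. Mx1, a GTPase that blocks influenza and related viruses, was at 5.87, 6.18 and 6.35 after 48 h at 300 mOsm/kg, against 10.32, 10.01 and 10.15 at 640 mOsm/kg. It fell by 4.03 ± 0.28 on the log2 scale (SE, limma adjusted p 1.76e-06), which is 16.3-fold lower. Ifit3, which takes part in blocking viral RNA, was at 5.55, 5.89 and 6.08 at 300 mOsm/kg, against 7.20, 7.52 and 7.52 at 640 mOsm/kg, and fell by 1.58 ± 0.22. In both genes every array at 300 mOsm/kg lay below every array at 640 mOsm/kg. Cxcl10, a chemokine that attracts T cells, changed by -2.66, Ifit1 by -1.94 and Oas1a, a sensor of double-stranded RNA, by -1.24, each with a limma adjusted p of 0.00101 or less.

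Of the 49 measured antiviral genes, 8 fell and 1 rose at 48 h, or 18.4%, against 1.85% of all genes and none of the 10. A count of none among 10 genes does not set them apart from all genes. The further 3 that fell were Rsad2 (-1.09), Oasl (-1.03) and Oas1b (-0.94), and Gbp2, a guanylate-binding GTPase, rose by 0.95. On the deposited scale Mx1, Cxcl10, Ifit1 and Ifit3 passed and the other five did not. The list's median was -0.03, and most of its genes were not called, among them Isg15, a ubiquitin-like modifier, at -0.02. The 95% intervals of 5 antiviral genes (Mx1, Cxcl10, Ifit1, Ifit3 and Oas1a) lay wholly below -0.81, the lowest bound of any of the 10 genes. A fall as large as that of these 5 was thus outside the interval of every one of the 10, Tapbp included. These 5 had the largest falls of the list on these same arrays, so this does not compare the 2 lists as wholes.

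At 24 h the antiviral and the antigen presentation genes lay closer together. The antiviral list had a median of 0.21, against 0.18 for the 10 genes and -0.04 for all genes. Usp18, which removes Isg15 from proteins and dampens the interferon receptor, rose by 0.95 ± 0.20 (SE, limma adjusted p 0.0484; 0.242 on the deposited scale) and was the only antiviral gene called. Ifit3 differed by 0.81, Isg15 by 0.72 and Mx1 by -0.74 without passing. Among the 10 genes the difference at 24 h lay between -0.09 (Tapbp) and 0.65 (Cd74).

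The test of whether the osmolality difference itself changed with time called 4 genes of the 14506, all of them antiviral. Mx1 changed by -3.29 ± 0.40, Cxcl10 by -2.59 ± 0.38, Ifit3 by -2.38 ± 0.31 and Oas1a by -1.66 ± 0.25 between 24 h and 48 h (SE, limma adjusted p from 0.00995 to 0.0354). None of the 4 passed on the deposited scale, without the 2 arrays of low median, or without replicate 3 at 24 h and 300 mOsm/kg. For the 10 genes the same quantity lay between -0.30 (Tapbp) and 0.28 (Psmb10), with 3 above 0 and 7 below and every limma adjusted p at 1.000. Their 95% intervals reached from -0.99 to 0.98, so the changes measured for these 4 antiviral genes lay outside all 10 intervals. The 4 were picked by this same test, so this does not compare the antiviral list as a whole with the 10.

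**Figure D3:**
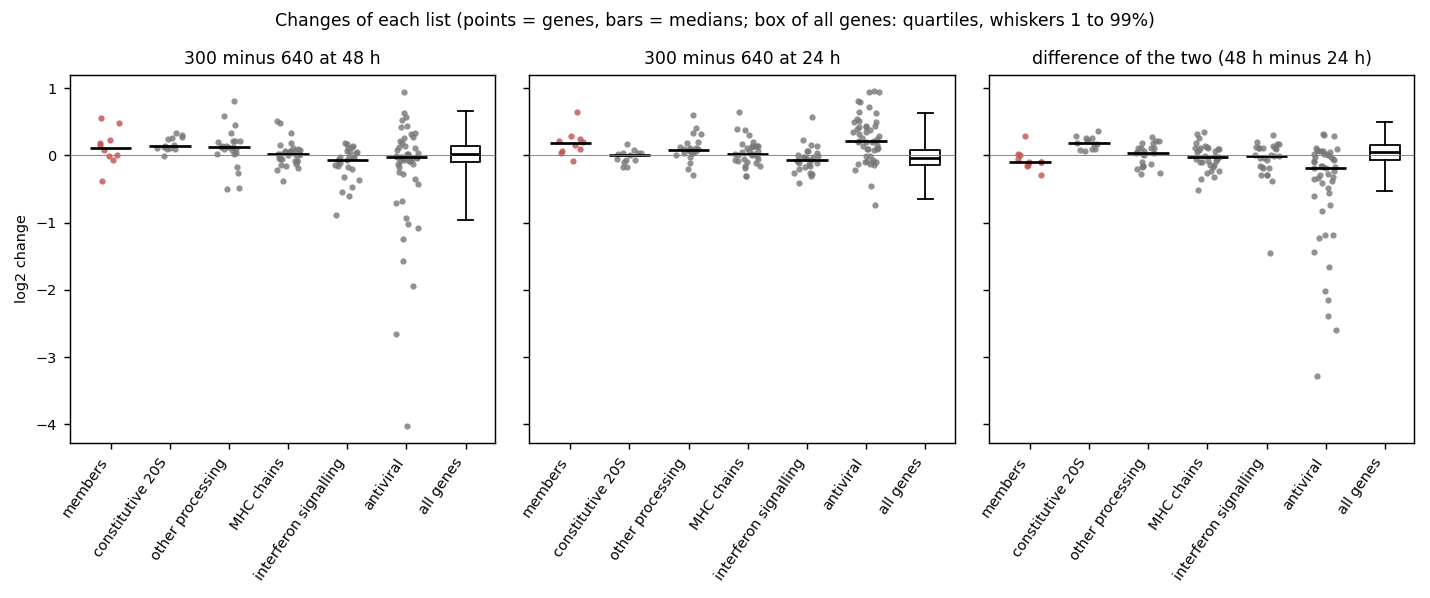
Differences between 300 and 640 mOsm/kg (centred log2) for each gene of the compared lists, at 48 h, at 24 h and as the 48 h difference minus the 24 h difference. Each point is a gene, the 10 genes (members) are in red, bars are list medians, and the box of all genes spans the quartiles with whiskers at 1 and 99%. The 10 genes lie between -0.38 and 0.65 in all 3 panels, while single antiviral genes reach as low as -4.03 at 48 h.

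Upstream of both sets stand the interferon receptors, their signalling factors and the MHC transactivators. Of 27 measured genes in that list, 1 was called at 48 h and none at 24 h, with a median of -0.06 at both times. Irf7, an amplifier of the type I interferon response, fell by 0.88 ± 0.20 on the log2 scale at 48 h (SE, limma adjusted p 0.0304; 0.344 on the deposited scale). Irf1, which acts on class I and immunoproteasome promoters, differed by -0.04 at 48 h and -0.16 at 24 h. Nlrc5, the transactivator of class I genes, was not analysed here. A further list of 23 antigen processing genes outside the 10 had no called gene, with medians of 0.12 at 48 h and 0.08 at 24 h.

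Time was compared at each osmolality. None of the 10 genes passed between 48 h and 24 h, where 0.255% of all genes did at 300 mOsm/kg and 0.138% at 640 mOsm/kg. At an unadjusted limma p under 0.05, 1 of the 10 (B2m) passed at each osmolality, against 7.62% of all genes at 300 mOsm/kg and 6.58% at 640 mOsm/kg. On the centred scale 8 of the 10 were higher at 48 h at each osmolality, with medians of 0.15 at 300 mOsm/kg (0.05 over all genes) and 0.20 at 640 mOsm/kg (0.00 over all genes). On the deposited scale the direction was the opposite, with 9 of the 10 lower at 48 h and medians of -0.28 and -0.22, but there the median of all genes was itself at -0.38 and -0.41. On both scales the median of the 10 lay above that of all genes. Under quantile normalization 7 of the 10 were higher at 300 mOsm/kg and 6 at 640 mOsm/kg, with medians of 0.08 and 0.13. A rise on the centred scale was not particular to the 10. All 13 measured genes of the constitutive 20S core were higher at 48 h at each osmolality, with medians of 0.36 at 300 mOsm/kg and 0.16 at 640 mOsm/kg. The MHC chains had medians of -0.05 and -0.04.

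B2m had the largest time difference of the 10. It was higher at 48 h by 0.54 ± 0.19 at 300 mOsm/kg and by 0.60 ± 0.19 at 640 mOsm/kg (SE), with limma adjusted p of 0.437 (raw p 0.0116) and 0.478 (raw p 0.00633). The 3 arrays at 48 h lay above the 3 at 24 h at both osmolalities, and B2m was the only one of the 10 whose arrays separated so, against 12.1% of all genes at 300 mOsm/kg and 9.58% at 640 mOsm/kg. Without the 2 arrays of low median the differences were 0.61 and 0.65, and on the deposited scale they were 0.11 and 0.18 with overlapping arrays. With arrays weighted by quality, limma called B2m at both osmolalities, at 0.70 (adjusted p 0.00678) and 0.71 (adjusted p 0.0156), and Psme2 at 640 mOsm/kg, at 0.52 (adjusted p 0.0407). That fit called 13.1% of all genes at 300 mOsm/kg and 6.8% at 640 mOsm/kg.

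Other genes of the 10 moved less over time. Psme2 differed by 0.24 at 300 mOsm/kg and by 0.38 ± 0.18 at 640 mOsm/kg, and Psmb9 by 0.19 and 0.35. Tap1 differed by -0.41 ± 0.27 at 300 mOsm/kg and by -0.31 ± 0.27 at 640 mOsm/kg (SE). Of the 49 antiviral genes, 4 fell at 48 h relative to 24 h at 300 mOsm/kg, namely Mx1 (-1.79), Ifit3 (-1.46), Rsad2 (-1.35) and Oas1a (-0.93). At 640 mOsm/kg 1 of the 49, Cxcl10, rose by 1.63, and Mx1 differed by 1.495 with a limma adjusted p of 0.0633. None of these time calls held on the deposited scale. These comparisons share arrays with those of osmolality.

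**Figure D4:**
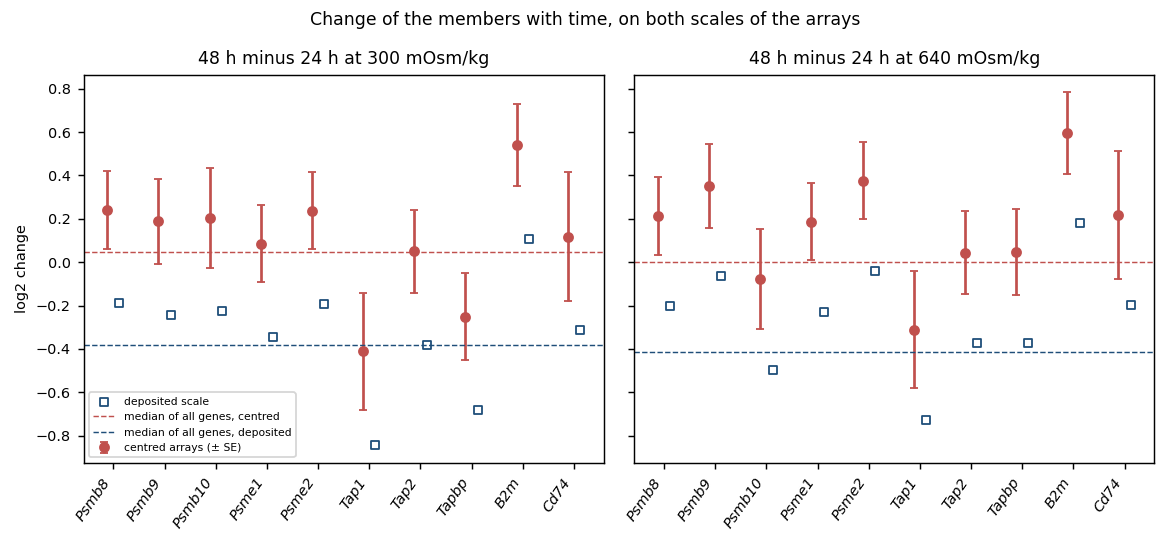
Difference between 48 h and 24 h (48 h minus 24 h, log2) of the 10 genes at 300 and at 640 mOsm/kg, on the centred and on the deposited scale. Bars on the centred values are SE and dashed lines mark the median of all genes on each scale. B2m is highest and Tap1 lowest on both scales, and the deposited values of 9 of the 10 genes lie below 0.

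The culture held cells other than principal cells, and several of these make antigen presentation genes. Aqp2, the vasopressin-regulated water channel that defines principal cells, was at 7.31 ± 0.512 after 48 h at 300 mOsm/kg, against 11.72 ± 0.132 at 640 mOsm/kg, and fell by 4.41 (limma adjusted p 2.88e-06). At 24 h it was at 7.09 ± 0.286, against 10.74 ± 0.806 (SD, n = 3 each), and fell by 3.65. Aqp3, Avpr2 and Slc14a2 fell too at 48 h, and Avpr2 at 24 h, so that 4 and 2 of 19 principal cell markers were called. Avpr2 at 24 h did not pass on the deposited scale (limma adjusted p 0.178). Of the 19 markers, 13 were lower at 300 mOsm/kg at 48 h and 16 at 24 h, with a median of -0.37 at each time. Krt8 and Krt18, keratins of simple epithelia on the same list, kept group means between 12.35 and 13.22 in all 4 groups.

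Markers of macrophages and dendritic cells, which make class II and Cd74, were measured for 22 of 23 genes. Their summed linear signal ranged from 2350 to 3465 after 48 h at 300 mOsm/kg, against 2639 to 3871 at 640 mOsm/kg, and from 1708 to 2389 at 24 h at 300 mOsm/kg, against 1948 to 2610 at 640 mOsm/kg. The ranges at 300 and 640 mOsm/kg overlapped at both times. Bright genes such as Cd14 (mean level 9.49) weigh most in such a sum, while others such as Adgre1 (percentile 19.9 of all genes) were dim. Of the 22 markers, 15 were lower and 7 higher at 300 mOsm/kg at 48 h (median -0.12), and 14 were lower and 8 higher at 24 h (median -0.10). At 48 h Csf1r, the macrophage growth factor receptor, fell by 0.69 (limma adjusted p 0.0288; 0.470 on the deposited scale), and Lyz2 (lysozyme) lay below at 300 mOsm/kg without overlap at -0.37. C1qa, a chain of complement C1q, and Fcgr3a, an Fc receptor, lay above at 300 mOsm/kg without overlap, at 0.73 and 0.49, without being called. At 24 h Csf1r alone of the 22 did not overlap, at -0.52. The part of these cells in the osmolality difference of Cd74 was not tested. Over time the median macrophage marker was higher at 48 h by 0.59 at 300 mOsm/kg and 0.42 at 640 mOsm/kg, and C1qa rose by 1.04 at 300 mOsm/kg (limma adjusted p 0.0319; 0.182 on the deposited scale). B2m was higher at 48 h in the same arrays, and the part of these cells in its time difference was not tested.

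Fibroblast markers moved in the same direction over time, with 4 of 11 called at 300 mOsm/kg (Col1a1, Pdgfrb, Dcn and Postn; median 1.06) and 3 at 640 mOsm/kg (median 0.99). None of these time calls held on the deposited scale. Between osmolalities Postn and Fbln1 rose at 48 h and Fbln1 at 24 h, of which only Postn passed on the deposited scale. The endothelial list was lower at 300 mOsm/kg in 11 of 11 genes at 48 h, with a median of -0.40 and Emcn called at -1.32 (limma adjusted p 0.382 on the deposited scale). Lymphocyte markers had no called gene in any comparison, and their summed signal was between 501 and 540 after 48 h at 300 mOsm/kg, against 483 to 573 at 640 mOsm/kg. Their mean levels were low, between 3.07 (Cd3g, percentile 4.58 of all genes) and 6.45 (Lck, percentile 43.6). Such a sum may be mostly background, and whether any of it came from lymphocytes was not tested. Of 11 intercalated cell markers, Rhbg, an ammonia transporter, was called at 48 h, at -1.03. The part of these cells in the levels of the 10 genes was not tested.

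The 10 genes did not vary as a single block over the 12 arrays. Psmb10 and Tap2, on different chromosomes, followed each other most closely (Pearson r 0.944), and then Psmb9 and Psme2 (0.929), Psme2 and B2m (0.871) and Psmb9 and B2m (0.861). Tap1 ran against Psmb9 (-0.691), B2m (-0.690) and Cd74 (-0.644), although Tap1 and Psmb9 share their intergenic stretch. These coefficients are across 12 arrays of 4 groups that share the array effects described above, and are given as a description. Likewise, the arrays of the 2 osmolalities at a given time resembled each other in sets, with a correlation of deviations between 0.58 and 0.84 over all genes in 6 pairs, of which 2 carry the same replicate number and 4 do not. The 2 joined replicate 2 arrays, and the 4 joined replicate 1 at either osmolality with replicate 3 at the other.

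The mean of the 10 genes was 9.36 ± 0.147 after 48 h at 300 mOsm/kg, 9.24 ± 0.157 after 48 h at 640 mOsm/kg, 9.26 ± 0.101 after 24 h at 300 mOsm/kg and 9.08 ± 0.0864 after 24 h at 640 mOsm/kg (SD, n = 3 each). Over the 12 arrays the genes outside the 10 that followed this mean most closely were RT1-T18 (r 0.960), H2bc1 (0.942), Paox (0.936), Prl8a7 (0.907), Hist1h2af (0.906) and Tmsb10 (0.896). RT1-T18 lies in the class I family, H2bc1 and Hist1h2af encode histones, Paox encodes a polyamine oxidase and Tmsb10 binds actin monomers. The osmolality difference of RT1-T18 was 0.22 at 48 h and 0.28 at 24 h. Prl8a7 had a mean level of 2.51, near the low end of the arrays (lowest deposited value 1.12), and RT1-T18 and H2bc1 stood at 5.41 and 5.64. Whether shared array effects gave this likeness was not tested.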

How the data were processed

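Values were the deposited log2 expression values of 12 Affymetrix Rat Gene 1.0 ST arrays. The authors made them with RMA in Affymetrix Power Tools, per the submitters' processing notes. Their versions, background settings and annotation are not given in the sources used here. In all 27596 probe sets were listed. Of these 15310 carried 1 symbol in the platform annotation, 323 carried several and 11963 were not listed. They gave 14506 genes, 14480 of which matched RefSeq by Entrez ID.

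Each array was shifted so that its median over named genes equalled the mean of the 12 medians. The functions lmFit and eBayes of limma 3.58.1 (R 4.3.3) fitted 1 mean per group to all 12 arrays, and p-values were adjusted by Benjamini-Hochberg over the 14506 genes. Arrays carry no read depth, and their number, 3 a group, limits the precision. The steps were tested on simulated data with known changes. The members and lists were chosen with earlier results of these data known. Besides the 10 genes, the text names Psmb5 to Psmb7, regulators, 5 antiviral genes, up to 4 called genes per list and direction, and the 6 genes closest to the members' mean. Further antiviral genes called at 48 h, class II chains, keratins and markers whose arrays did not overlap were named after their values were seen. Alternatives changed the scale, the filter on dim genes, the variance model, array weights, probe sets per gene, the groups in the fit, a replicate block, and single arrays. Replicate numbers were checked for pairing. Over 18 pairs of the same number the correlation of deviations was between -0.23 and 0.84. The 4 of 12 arrays that correlated best with their own number were the replicate 2 arrays. At each time, replicate 1 at either osmolality correlated best with replicate 3 at the other. The numbers as given were therefore not taken to pair arrays, although sets of arrays resembled each other. Promoter sequences came from RefSeq (GRCr8).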

Additional observations from a re-analysis of the deposited data

Results flagged for a closer look

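The difference between 300 and 640 mOsm/kg was itself different at 48 h and at 24 h in 4 antiviral genes by the limma interaction test across all genes, and in none of the antigen presentation genes. The log2 change of the difference was -3.29 for Mx1, whose difference was -4.03 at 48 h and -0.74 at 24 h. It was -2.59 for Cxcl10, from differences of -2.66 at 48 h and -0.07 at 24 h. Ifit3 had -2.38, with -1.58 at 48 h and 0.81 at 24 h, and Oas1a had -1.66, with -1.24 at 48 h and 0.42 at 24 h. On the deposited scale none of these 4 passed.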

How the results depend on the processing

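The count of the 10 genes called was 0 in all 5 comparisons under every alternative run except array weights, which called 1 at 24 h between osmolalities (Cd74), 1 over time at 300 mOsm/kg (B2m) and 2 over time at 640 mOsm/kg (B2m and Psme2). Counts over all genes moved more. The deposited scale gave 104 genes between osmolalities at 48 h (269 on the centred scale), 13 at 24 h (95, with 15.4% rather than 42.1% of calls higher at 300 mOsm/kg), 0 for the change of the difference (4), and 0 over time at 300 and 0 at 640 mOsm/kg (37 and 20). Array weights gave 499, 1595, 10, 1907 and 986 in the same order, with 49.2% rather than 100% of the last higher at 48 h. Quantile normalization and cyclic loess each gave 2 for the change of the difference, and fitting only the groups compared gave 10 at 24 h, an alternative that cannot be had for the change of the difference. Without the 2 arrays of low median the counts were 17 at 24 h, 0 for the change of the difference, 219 over time at 300 mOsm/kg and 34 at 640 mOsm/kg.

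With the replicate number as a block, the counts were 403 at 48 h, 159 at 24 h, 6 for the change of the difference, 92 over time at 300 mOsm/kg and 35 at 640 mOsm/kg, and none of the 10 genes was called. The labels do not say that the numbers pair arrays. The 4 of 12 arrays that correlated best with an array of their own number were the replicate 2 arrays. This block therefore did not follow the sets of arrays that resembled each other.

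Leaving out 1 array at a time gave 158 to 296 genes at 48 h, lowest without replicate 1 at 48 h and 640 mOsm/kg, with 178, 165 and 163 without replicate 1, 2 or 3 at 48 h and 300 mOsm/kg. It gave 26 to 78 at 24 h (26 without replicate 3 and 55 without replicate 2 at 300 mOsm/kg, 32 without replicate 1 and 40 without replicate 3 at 640 mOsm/kg), and 0 to 4 for the change of the difference, 0 without replicate 3 at 24 h and 300 mOsm/kg and 2 without replicate 1 or 3 at 48 h and 300, replicate 1 at 48 h and 640, replicate 2 at 24 h and 300 or replicate 3 at 24 h and 640 mOsm/kg. Over time the counts were 7 to 50 at 300 mOsm/kg, lowest without that same array (also 9, 10 and 15 without replicate 1, 2 or 3 at 48 h and 300 mOsm/kg, 17 without replicate 2 at 24 h and 300 mOsm/kg, and 21 without replicate 1 at 48 h and 640 mOsm/kg), and 6 to 19 at 640 mOsm/kg, lowest without replicate 1 at 48 h and 640 mOsm/kg and at most 13 without any array other than replicate 1 at 48 h and 300, replicate 3 at 48 h and 640, or replicates 1 and 2 at 24 h and 300 mOsm/kg. None of the 10 genes was called in any of these fits. The sign of a member's difference departed from that given in 13 of 220 values at 48 h, 7 of 220 at 24 h, 31 of 210 for the change of the difference, 14 of 220 over time at 300 mOsm/kg and 16 of 220 at 640 mOsm/kg. The causes were not tested. With 3 arrays a group, changes near 0.5 on the log2 scale were mostly not detected by this fit in simulated arrays that varied independently.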
